A study of Mus musculus with 12 samples.

Results

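The genes described here are 36 smooth muscle contractile, actin cytoskeleton and focal adhesion genes that are counted among the targets of serum response factor (SRF). They were taken as a list of gene symbols, chosen with earlier results of these data known. The shares of members called are therefore descriptive and are no independent test of the list. On the MouseWG-6 v2 bead array, 35 of the 36 had at least 1 feature of that symbol, and Cnn3 was not analysed here. A feature is a probe ID, or a set of IDs that carried the same values on all 12 arrays and were merged. The 35 genes had 48 of the 30854 features: 26 genes had 1 feature, 9 had more, and each gene is represented by its brightest feature.

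Total RNA came from whole hearts of female FVB/N mice aged 3 weeks, with 3 arrays for each of 4 groups. The severe line MHC-CELFΔ-10 and the mild line MHC-CELFΔ-574 were hemizygous for a transgene that encodes a dominant negative CELF protein held in the nucleus, which blocks splicing regulation by the CELF family. The α-myosin heavy chain promoter drives the transgene in heart muscle after birth, and not in the vessels, fibroblasts or blood of the same hearts. The controls were wild type mice from the litters of each line, and their 6 arrays were pooled as wild type. The comparisons ask how each line differs from wild type and how the lines differ from each other.

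SRF is a transcription factor that binds a short sequence called the CArG box. In muscle cells its partner myocardin turns on contractile genes, and in most cells the myocardin-related factors, which are released when actin monomers are built into filaments, turn on genes of the actin cytoskeleton. In the heart, transcripts of this kind come from cardiomyocytes, from the smooth muscle of coronary vessels, and from fibroblasts. In whole-heart RNA, a change in the number of such cells and a change in the RNA of each cell cannot be told apart.

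The CArG box was searched in RefSeq promoter windows (build GRCm38.p6) that run from 250 bases before to 50 bases after an annotated start. Of the 36 genes, 32 had a window, 41 windows in all, and Pxn, Csrp2, Tagln and Myh11 had none. A CArG box stood in 3 of the 41 windows (7.32%), against 535 of all 32851 windows (1.63%). Allowing 1 letter off, 12 of the 41 windows (29.3%) held one, against 21.1% of all windows. The members are counted among SRF targets, so these shares are descriptive and no independent test. The box was taken as CC, then 6 bases that are each A or T, then GG. A match to this pattern on 1 strand is also a match on the other, and no other motif was searched. The 3 windows belonged to Myl9, Cnn2 and Vcl, and the stretch around each box is shown because Myl9 also had the largest change of the set while the other genes had small ones. Capitals mark the box.
Myl9, chr2:156775273-156775342, plus strand: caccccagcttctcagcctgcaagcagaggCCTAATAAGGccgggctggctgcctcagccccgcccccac
Cnn2, chr10:79988514-79988583, plus strand: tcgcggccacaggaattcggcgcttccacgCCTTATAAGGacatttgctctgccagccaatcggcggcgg
Vcl, chr14:20929148-20929210, plus strand: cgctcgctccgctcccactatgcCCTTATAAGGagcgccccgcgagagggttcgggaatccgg
The first base of the box lay 161 bases before the start of Myl9, 56 before that of Cnn2 and 227 before that of Vcl. A further 9 genes had only boxes 1 letter off: Cald1, Cfl1, Dstn, Flna, Gsn, Lmod1, Lpp, Palld and Wdr1. Zyx, Actn1, Cfl2 and Pfn1, which were called in a line as described below, had a window with neither kind of box. A match is a run of letters and not a measured binding site.

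**Figure D1:**
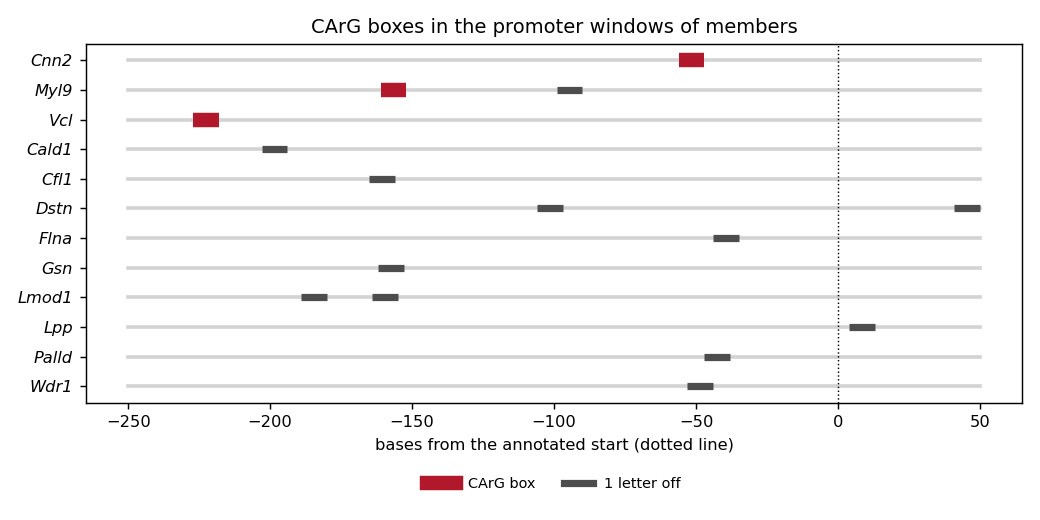
CArG boxes (red) and boxes 1 letter off (grey) in the promoter windows of the 12 member genes that hold any, by distance in bases from the annotated start. Exact boxes lie at 161, 56 and 227 bases before the start in Myl9, Cnn2 and Vcl.

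In severe line hearts, 7 of the 48 member features rose and 0 fell against wild type (14.6%, against a background of 3.3% of all 30854 features called in either direction, 1.75% higher and 1.56% lower). The 7 genes were Myl9, Tagln, Zyx, Actn1, Wdr1, Cfl2 and Pfn1. In mild line hearts, 3 rose (Cfl2, Pfn1 and Wdr1) and 2 fell (Csrp2 and Dstn), which is 10.4% against a background of 3.55%, with 1.62% called higher and 1.93% called lower. Called means a Benjamini-Hochberg adjusted p under 0.05 in limma, over all features and at any fold. All changes were below 2-fold: under the methods' 2-fold limit 0 member features were called in either line, against 42 features in the severe line (0.136%) and 83 in the mild line (0.269%) over the whole array. At an unadjusted p under 0.05, 17 member features passed in the severe line and 8 in the mild line (background 13.5% and 12.3%). Dim features are called less often, and most member features were brighter than the median feature. With only the 15427 features above that median tested, 8 of 38 member features were called in the severe line and 5 in the mild line. The background was then higher, at 7.56% and 7.95%. The median log2 fold change over the 48 features was 0.08 in the severe line and 0.07 in the mild line, while the median over all features lay at 0.00 in both. The same 6 wild type arrays served both comparisons, so the values of the lines are given side by side.

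**Figure D2:**
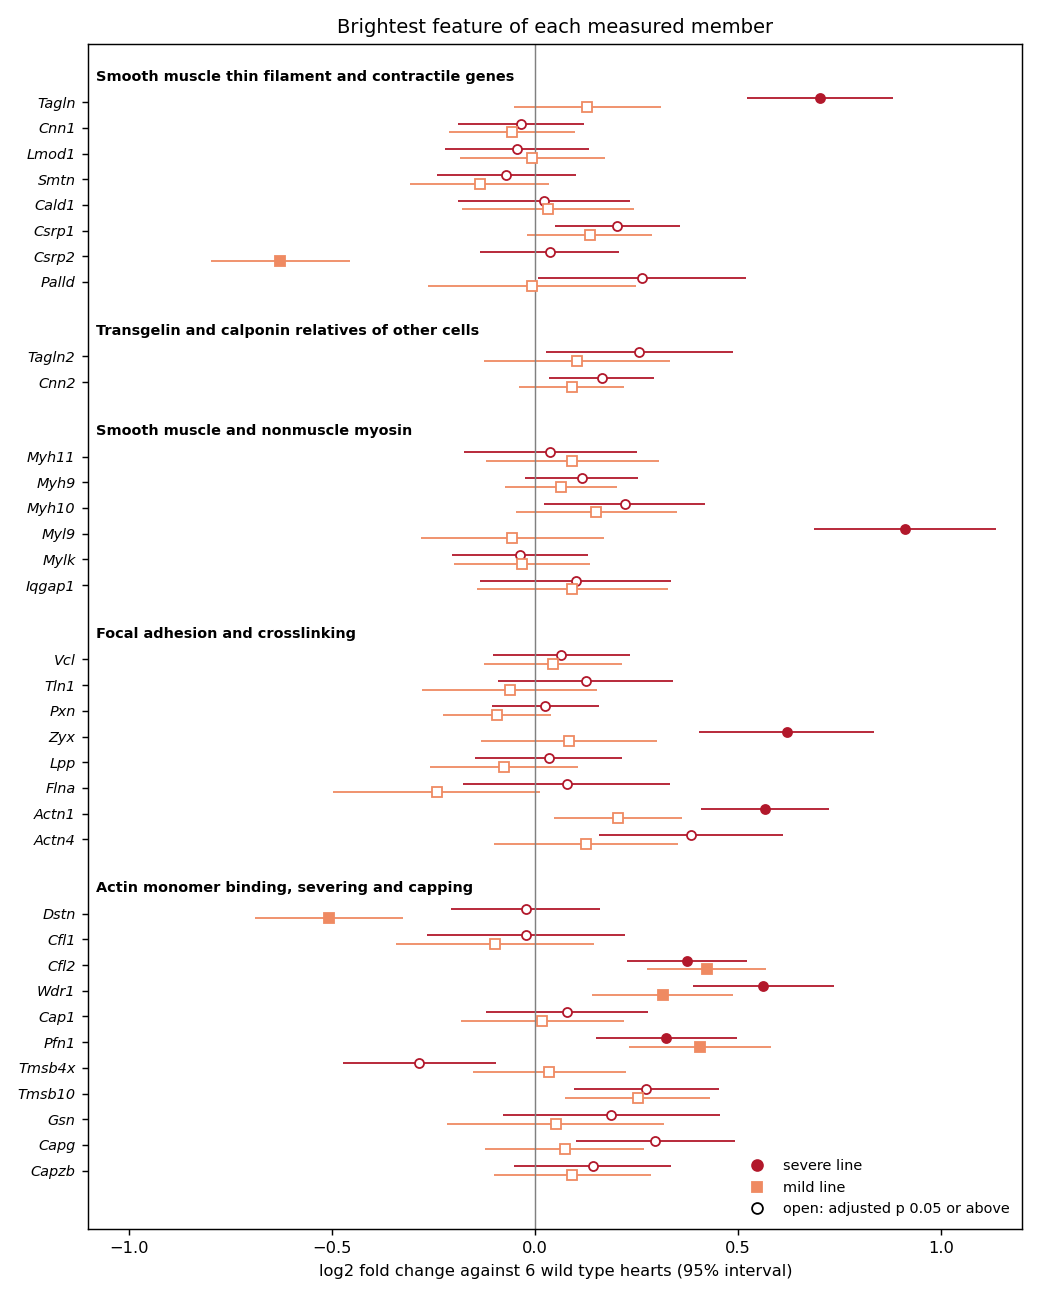
Log2 fold change of the brightest feature of each of the 35 measured genes against 6 wild type hearts, with 95% intervals, severe line (circles) above mild line (squares), 3 arrays each, in groups by role. Filled symbols passed the test: 7 in the severe line, all to the right of 0, and 5 in the mild line, of which Csrp2 and Dstn lie to the left.

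A group of 6 genes covers smooth muscle and nonmuscle myosin, with the kinase gene Mylk and the scaffold gene Iqgap1. In it the regulatory light chain gene Myl9 was the only called member. Its light chain belongs to smooth muscle and nonmuscle myosin and, once phosphorylated, switches the motor on. Myl9 had log2 signals of 10.57, 10.73 and 11.04 in severe line hearts and 9.80, 9.83 and 9.82 in mild line hearts, against 10.10, 9.87 and 10.07 in wild type littermates of the severe line and 9.64, 9.84 and 9.68 in those of the mild line. All severe line arrays lay above every other array, and the mild line arrays lay inside the wild type range. The severe line rose 1.88-fold (log2 fold change 0.91, SE 0.107, adjusted p = 4.19e-05), and the mild line difference was -0.06 (adjusted p = 0.910). The wild type litters themselves did not overlap for Myl9, with a difference of 0.30 (severe line litters minus mild line litters, adjusted p = 0.337). Against its own littermates alone the severe line rose by 0.76 (adjusted p = 0.000382).

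The other genes of this group did not pass in either line. Mylk, the kinase that phosphorylates this light chain, had -0.04 in the severe line and -0.03 in the mild line (95% intervals -0.20 to 0.13 and -0.20 to 0.14). Myh11, the smooth muscle myosin heavy chain, had 0.04 and 0.09 (severe line, then mild line), with intervals of -0.17 to 0.25 and -0.12 to 0.30. The nonmuscle heavy chain gene Myh10 had 0.22 in the severe line (adjusted p = 0.292) and 0.15 in the mild line (adjusted p = 0.592). Myh9, the other nonmuscle heavy chain gene, had 0.11 in the severe line, whose 3 arrays all lay above wild type without passing the test (adjusted p = 0.497), and 0.06 in the mild line. Iqgap1, a scaffold that binds actin, had 0.10 in the severe line and 0.09 in the mild line.

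Of the 8 smooth muscle thin filament and contractile genes, 1 rose in the severe line and 1 fell in the mild line. Tagln encodes transgelin, an actin-binding protein that marks smooth muscle and the embryonic heart. Tagln had log2 signals of 6.84, 6.88 and 7.28 in severe line hearts and 6.48, 6.39 and 6.41 in mild line hearts, against 6.43, 6.26 and 6.27 in the severe line's littermates and 6.32, 6.20 and 6.30 in the mild line's. Only the severe line arrays stood apart from the rest. Severe line hearts had a 1.63-fold rise (0.70, SE 0.0856, adjusted p = 6.28e-05), but the mild line value of 0.13 did not pass (adjusted p = 0.623). The wild type mean of Tagln was 0.02 above the array median, a level at which the files do not tell signal from background.

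Csrp2 encodes a LIM-domain protein that binds actin regulators and was first known from smooth muscle. It had 11.74, 11.70 and 11.71 in severe line hearts and 11.19, 11.13 and 10.85 in mild line hearts, against 11.60, 11.75 and 11.83 in the severe line's littermates and 11.59, 11.57 and 11.75 in the mild line's. The 3 mild line arrays were lower than all others, and the severe line arrays were within the wild type range. Csrp2 was 1.54-fold lower in the mild line (-0.63, SE 0.0814, adjusted p = 7.24e-05). The severe line value was 0.04 (adjusted p = 0.916).

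The other 6 genes of this group lay between -0.07 and 0.26 in the severe line and between -0.14 and 0.13 in the mild line. Cnn1, encoding the smooth muscle calponin that restrains actin-activated myosin, had -0.03 in the severe line and -0.06 in the mild line, at a wild type mean below the array median. Lmod1 (leiomodin, which starts actin filaments in smooth muscle) had -0.04 and -0.01 in the severe and mild lines, and Cald1 (caldesmon, which binds actin and tropomyosin) had 0.02 and 0.03. The wild type means of Lmod1 and Cald1 were only 0.13 and 0.29 above the array median. Smtn, encoding smoothelin of contractile smooth muscle, was well above the median and had -0.07 in the severe line and -0.14 in the mild line. Palld, encoding the actin scaffold palladin, had 0.26 in the severe line (adjusted p = 0.348), with replicates of 10.64, 10.01 and 10.54 against a wild type range of 9.94 to 10.32, and -0.01 in the mild line. Csrp1, a LIM-domain relative of Csrp2, had 0.20 in the severe line (adjusted p = 0.178) and 0.13 in the mild line (adjusted p = 0.501), with its brightest feature below the array median in wild type. Of the transgelin and calponin relatives of other cells, Tagln2 had 0.26 and 0.10, and Cnn2, whose promoter window holds a CArG box, had 0.16 and 0.09 (severe line, then mild line). All severe line arrays of Cnn2 lay above wild type, at 6.76 to 6.89 against 6.62 to 6.73, but the adjusted p was 0.200.

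Of the 8 focal adhesion and crosslinking genes, 2 rose in the severe line and 0 were called in the mild line. Zyx encodes zyxin, a LIM protein that moves to focal adhesions and stress fibers under tension. Zyx had 13.00, 12.81 and 13.17 in severe line hearts and 12.51, 12.53 and 12.34 in mild line hearts, against 12.11, 12.40 and 12.45 in the severe line's littermates and 12.56, 12.18 and 12.55 in the mild line's. The severe line rose 1.54-fold (0.62, SE 0.103, adjusted p = 0.00131), and the mild line, whose arrays were inside the wild type range, had 0.08 (adjusted p = 0.844).

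Actn1 encodes an α-actinin that crosslinks actin filaments outside the Z-disc. It had 10.48, 10.18 and 10.30 in severe line hearts and 10.04, 9.95 and 9.89 in mild line hearts, against 9.70, 9.84 and 9.64 in the severe line's littermates and 9.85, 9.79 and 9.71 in the mild line's. Here the 3 groups formed 3 separate ranges, with the severe line on top. The rise was 1.48-fold in the severe line (0.57, SE 0.0750, adjusted p = 0.000148), whereas the mild line value of 0.20 did not pass (adjusted p = 0.203). Its paralog Actn4 had 0.38 in the severe line (adjusted p = 0.0600) and 0.13 in the mild line (adjusted p = 0.743). In wild type, 1 array of Actn4 stood at 8.96 and the other 5 at 8.39 to 8.60, and without that array, or without mild line replicate 2, the severe line comparison of Actn4 was called.

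The remaining 5 genes of this group did not pass in either line. Vcl, encoding vinculin, which links talin to actin and whose promoter window holds a CArG box, had 0.06 in the severe line and 0.04 in the mild line, with 95% intervals of -0.10 to 0.23 and -0.12 to 0.21. Tln1 (talin, the integrin activator) had 0.12 and -0.06, Pxn (the adhesion scaffold paxillin) 0.03 and -0.09, and Lpp (a relative of zyxin) 0.03 and -0.08, each in the severe line and then the mild line. Flna, encoding the actin crosslinker filamin A, had 0.08 in the severe line (adjusted p = 0.866) and -0.24 in the mild line (adjusted p = 0.446). Lpp was read by 5 features, and its next brightest had 0.25 in the severe line (adjusted p = 0.246) and -0.08 in the mild line. The severe line arrays of that feature lay above those of the mild line, without a call (0.33, adjusted p = 0.209). Of the 13 member features other than the brightest, 0 were called in any comparison. No called gene had a feature other than its brightest, so no call could be checked against another feature of its gene.

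The 11 genes of actin monomer binding, severing and capping were the largest group and held the largest number of calls. Of these genes, 3 were higher in the severe line, and 3 were higher and 1 lower in the mild line. The severe line count of 3 of 11 stood beside 2 of 8 for the focal adhesion and crosslinking genes. Wdr1 encodes a protein that works with cofilin to take filaments apart. Wdr1 had 11.24, 11.10 and 11.25 in severe line hearts and 10.80, 11.04 and 11.00 in mild line hearts, against 10.66, 10.85 and 10.67 in the severe line's littermates and 10.64, 10.51 and 10.48 in the mild line's. The severe line arrays lay above all others, and the lowest mild line array lay below the highest wild type array. The rise of Wdr1 was 1.48-fold in the severe line, at 0.56 (SE 0.0828, adjusted p = 0.000413). In the mild line it was 1.24-fold, at 0.31 (adjusted p = 0.0412). That mild line call was lost under 12 of 24 alternatives. It was lost without mild line replicate 2 (0.27, adjusted p = 0.245), without replicate 3 (0.29, adjusted p = 0.191), and without any 1 wild type array other than replicate 2 of the severe line's littermates (adjusted p = 0.0570 to 0.0876). The call in the severe line was lost when the arrays were scaled to a common median in place of quantile normalization (0.39, adjusted p = 0.0694).

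Cfl2 encodes the muscle form of cofilin, which severs actin filaments. It had 7.91, 7.91 and 8.02 in severe line hearts and 8.03, 7.86 and 8.08 in mild line hearts, against 7.50, 7.56 and 7.46 in the severe line's littermates and 7.64, 7.65 and 7.61 in the mild line's. All 6 transgenic arrays lay above all 6 wild type arrays. The rise of Cfl2 was 1.30-fold in the severe line, at 0.37 (SE 0.0700, adjusted p = 0.00391). The mild line rose 1.34-fold, at 0.42 (adjusted p = 0.000956). With median scaling the severe line call was lost (0.29, adjusted p = 0.109).

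Pfn1 encodes profilin, which delivers actin monomers to growing filament ends. It had 10.05, 10.03 and 10.02 in severe line hearts and 10.04, 10.24 and 10.06 in mild line hearts, against 9.71, 9.44 and 9.66 in the severe line's littermates and 9.83, 9.79 and 9.82 in the mild line's. Again all transgenic arrays lay above all wild type arrays. Severe line hearts had 1.25-fold more signal (0.32, SE 0.0828, adjusted p = 0.0366), while mild line hearts had 1.33-fold more (0.41, adjusted p = 0.00649). The severe line call was lost under 10 of 24 alternatives. It was lost without any 1 of the severe line replicates (adjusted p = 0.102 to 0.162), without replicate 1 or 3 of the severe line's littermates or replicate 2 of the mild line's (adjusted p of at most 0.0606), and with median scaling (0.19, adjusted p = 0.326). Against its own littermates the mild line did not pass (0.30, adjusted p = 0.0723), nor did it without mild line replicate 2 (adjusted p = 0.0805).

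Dstn encodes destrin, a further member of the cofilin family, and went the other way in the mild line. It had 10.25, 10.30 and 10.51 in severe line hearts and 9.83, 9.85 and 9.92 in mild line hearts, against 10.53, 10.43 and 10.47 in the severe line's littermates and 10.44, 10.28 and 10.11 in the mild line's. The mild line arrays were below all others, and the severe line arrays fell within the wild type range. Dstn was 1.42-fold lower in the mild line (-0.51, SE 0.0871, adjusted p = 0.00137). The severe line value was -0.02 (adjusted p = 0.953). Cfl2 and Dstn, of the same protein family, had opposite directions in the same mild line hearts. The third, Cfl1, the nonmuscle cofilin, had -0.02 in the severe line and -0.10 in the mild line from a feature below the array median.

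**Figure D3:**
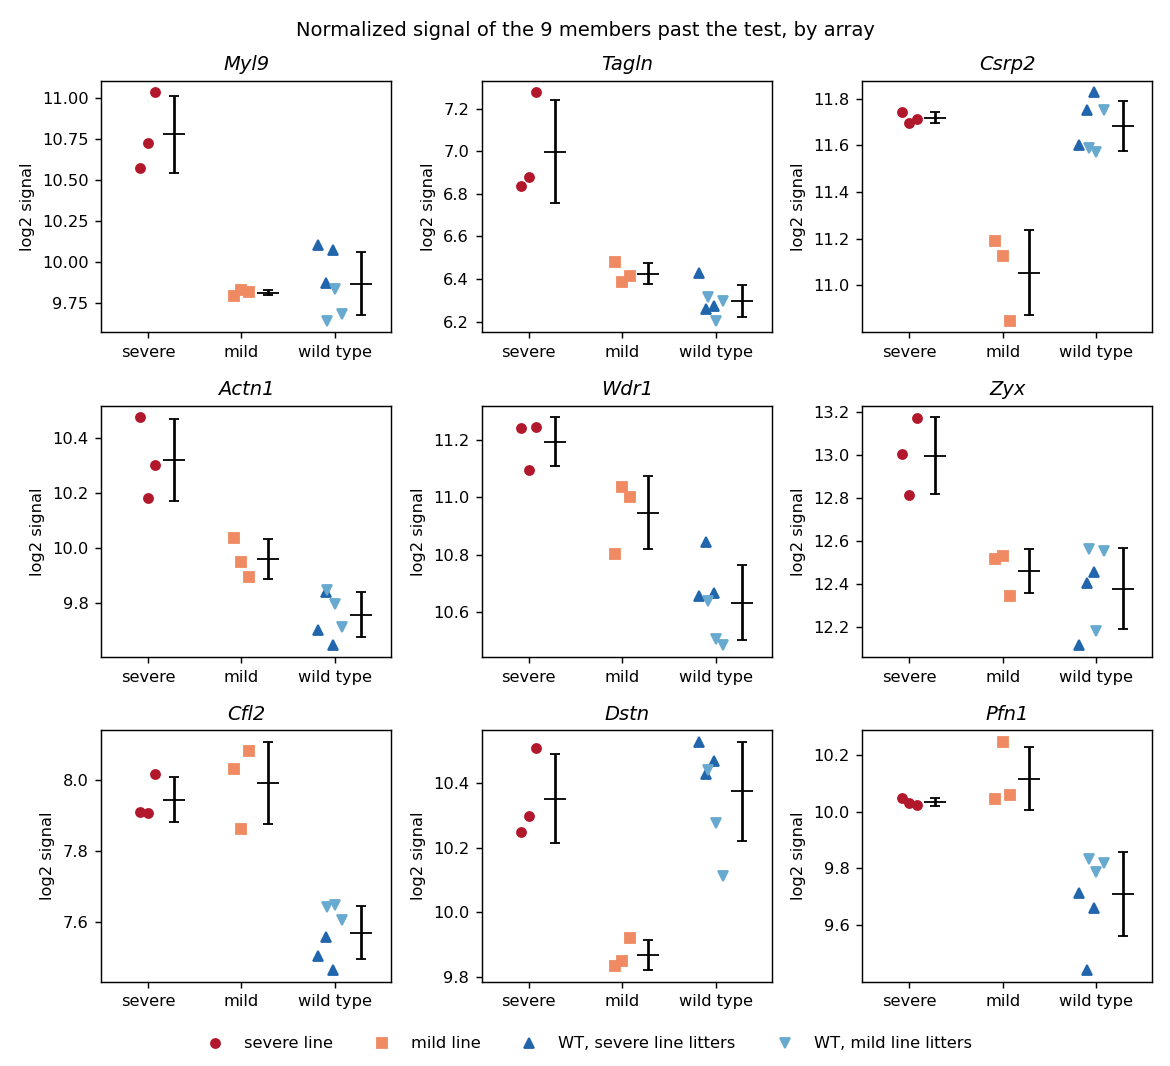
Normalized log2 signal on each of the 12 arrays for the 9 member genes past the test in any comparison of the lines, with the mean and SD of the severe line (n = 3), mild line (n = 3) and wild type (n = 6). The severe line stands above all other arrays for Myl9, Tagln, Zyx, Actn1 and Wdr1, the mild line stands below them for Csrp2 and Dstn, and both lines stand above wild type for Cfl2 and Pfn1.

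The other 7 genes of actin turnover did not pass in either line. Tmsb4x and Tmsb10 encode the β-thymosins that hold actin as monomers, and their values differed in sign in the severe line. Tmsb4x had -0.28 in the severe line (adjusted p = 0.105) and 0.04 in the mild line (adjusted p = 0.935). Its severe line arrays, at 11.18 to 11.35, were below those of the mild line, at 11.50 to 11.66. Tmsb10 had 0.27 in the severe line (adjusted p = 0.0998) and 0.25 in the mild line (adjusted p = 0.144). Capg, encoding a gelsolin relative that caps filaments, had 0.30 in the severe line (adjusted p = 0.104) and 0.07 in the mild line. Gsn (gelsolin, which severs and caps) had 0.19 and 0.05, Capzb (a subunit of the capping protein) 0.14 and 0.09, and Cap1 (which recycles cofilin-bound actin) 0.08 and 0.02, each in the severe line and then the mild line. With median scaling the split of member calls in the severe line was 4 higher (Actn1, Myl9, Tagln and Zyx) and 1 lower (Tmsb4x), in place of 7 higher and 0 lower. Over all features that scaling gave 270 higher and 857 lower calls in the severe line, in place of 539 higher and 480 lower. Tmsb4x was also called lower in the severe line against its own littermates alone and when replicate 1 of the mild line's littermates was left out. Capg, Palld and Myh10 were each called higher in the severe line without 1 array: severe line replicate 3 for Capg, severe line replicate 2 for Palld and replicate 1 of the severe line's littermates for Myh10.

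Between the lines, 6 member features were higher in the severe line than in the mild line and 0 were lower (12.5%, against a background of 1.37% in either direction, 0.771% higher and 0.596% lower). With only features above the median tested, 6 of 38 member features were called, against a background of 3.3%. The 6 genes were Myl9, Tagln and Zyx, at 0.97 (adjusted p = 0.000215), 0.57 (adjusted p = 0.00494) and 0.54 (adjusted p = 0.0276), Csrp2 at 0.66 (adjusted p = 0.000604), Dstn at 0.48 (adjusted p = 0.0182) and Actn1 at 0.36 (adjusted p = 0.0453). The difference came with a rise in the severe line for Myl9, Tagln, Zyx and Actn1, and with a fall in the mild line for Csrp2 and Dstn. For the genes higher in both lines the differences did not pass: 0.25 for Wdr1 (95% interval 0.05 to 0.45, adjusted p = 0.267), -0.05 for Cfl2 (-0.22 to 0.12) and -0.08 for Pfn1 (-0.28 to 0.12). Without severe line replicate 3, or without mild line replicate 1, 2 or 3, the calls numbered 3 and were Csrp2, Myl9 and Tagln. Over 24 alternatives the call between the lines was lost in 14 for Actn1, 9 for Zyx and 8 for Dstn.

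Setting each line first against its own littermates, then taking the difference, gave 0 member calls, with 8 of the 48 features at an unadjusted p under 0.05 (82 of all features, 0.266%, were called in this way). The differences were then 0.67 for Myl9 (95% interval 0.36 to 0.98, adjusted p = 0.0798), 0.57 for Csrp2 (0.30 to 0.85, adjusted p = 0.104), 0.53 for Tagln (0.23 to 0.82, adjusted p = 0.233), 0.64 for Zyx (0.29 to 0.996, adjusted p = 0.202), 0.42 for Actn1 (0.16 to 0.68, adjusted p = 0.314) and 0.29 for Dstn (0.02 to 0.56, adjusted p = 0.660). The wild type litters of the severe line minus those of the mild line had 0 member calls in limma (background 0.0875% in either direction, 0.0259% higher, 0.0616% lower and 0.00648% under the 2-fold rule), with 8 of 48 member features at an unadjusted p under 0.05 (background 9.97%). Their differences over the 48 features lay between -0.32 and 0.30.

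**Figure D4:**
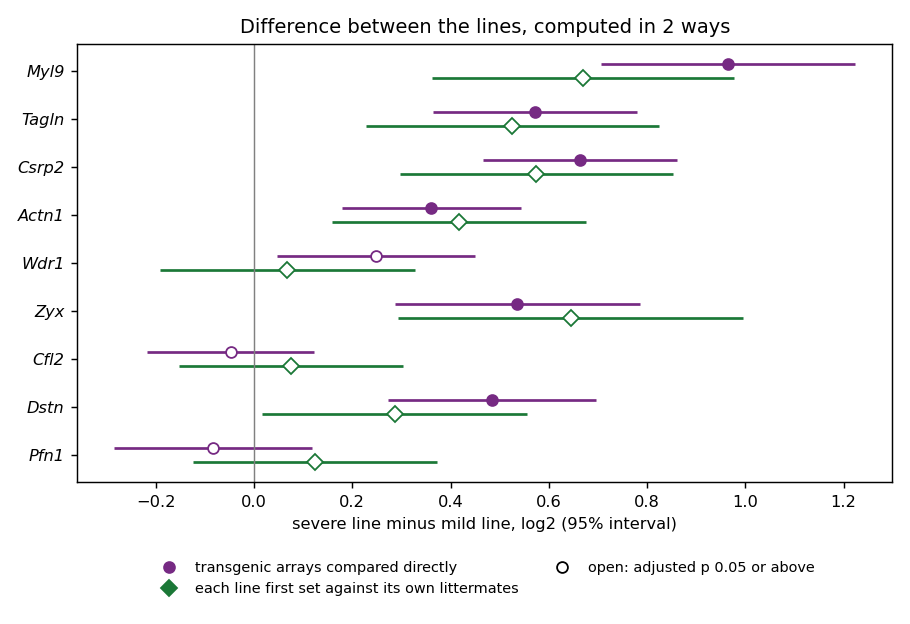
Severe line minus mild line for the 9 genes, in log2 with 95% intervals, from the transgenic arrays directly (circles, 3 against 3) and after each line was set against its own 3 littermates (diamonds). Myl9 has 0.97 directly and 0.67 after its littermates, and the intervals are wider in the second form, in which 0 of the genes pass.

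Array by array, 9 of the 35 genes had all severe line arrays above all wild type arrays and 0 had all below (background 3.59% and 3.63% of features). In the mild line 3 genes (Actn1, Cfl2 and Pfn1) lay wholly above and 2 (Csrp2 and Dstn) wholly below (background 3.6% and 3.92%). Against the mild line, 9 genes had all severe line arrays above and 1, Tmsb4x, had all below (background 9.36% and 8.78%).

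**Figure D5:**
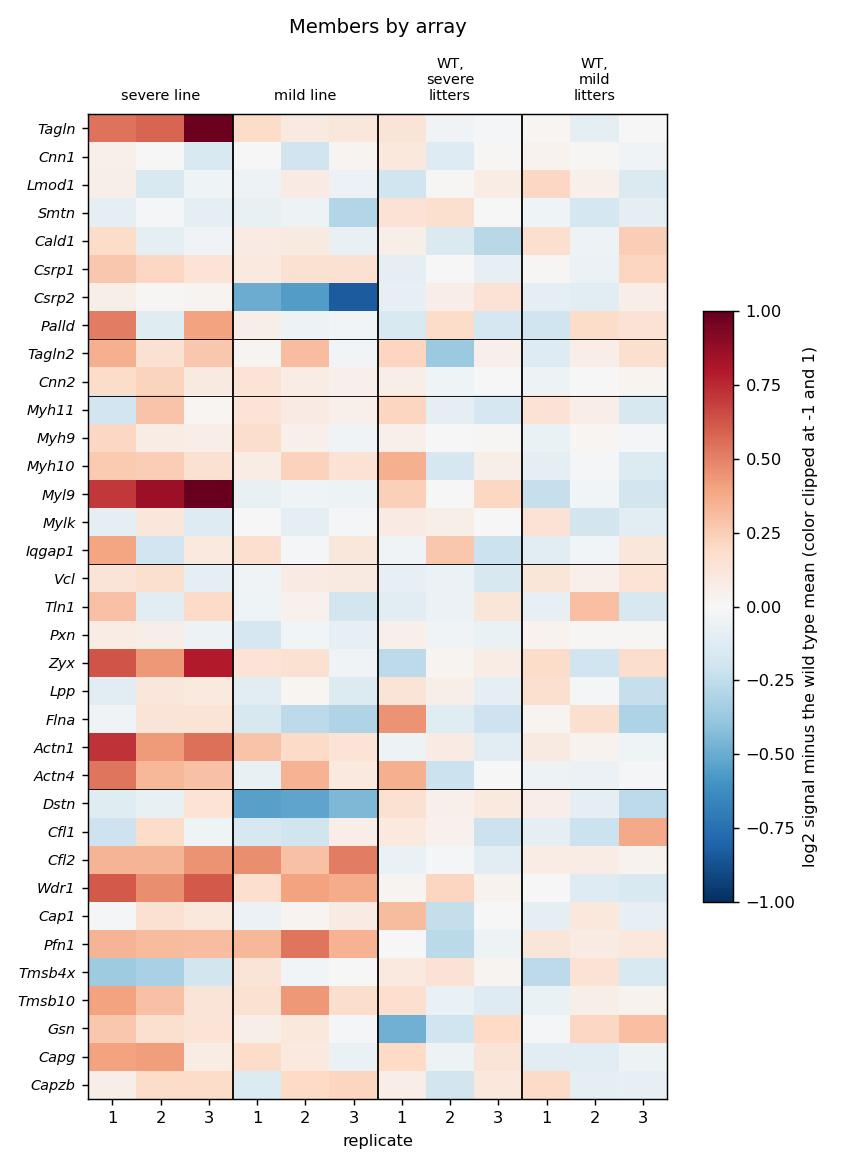
Log2 signal minus the wild type mean for each of the 35 genes (rows, by role) on each array (columns: severe line, mild line, and wild type littermates of the severe and mild lines), red for higher and blue for lower, with colors clipped at -1 and 1. Tagln, Myl9, Zyx and Actn1 are red in all severe line columns, and Csrp2 and Dstn are blue in all mild line columns.

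The wider pathway was read from lists of SRF cofactors and of other actin and adhesion genes. Of 8 measured SRF and cofactor genes, 1 rose and 2 fell in each line. Srf itself had 0.15 in the severe line (adjusted p = 0.542) and 0.20 in the mild line (adjusted p = 0.347). Fhl1, a LIM-domain gene and SRF target, rose by 1.02 in the severe line and by 0.46 in the mild line, while the SRF inhibitors Fhl2 and Hopx fell in each line. Their log2 fold changes were -0.70 for Fhl2 and -0.52 for Hopx in the severe line, and -1.67 for Fhl2 and -3.10 for Hopx in the mild line. Of 54 measured actin and adhesion genes outside the members, 8 rose and 1 fell in the severe line, and 7 rose and 1 fell in the mild line. The gene that fell was Fblim1, a filamin-binding adhesion gene, in both lines (-0.38 in the severe line and -0.49 in the mild line). Between the lines 0 were higher and 3 lower in the severe line: Myl12a, Myl12b and Synpo2. Over all features 3.3% were called in the severe line, 3.55% in the mild line and 1.37% between the lines. Of the 35 members, 7 rose and 0 fell in the severe line, and 3 rose and 2 fell in the mild line. Calls against wild type were therefore not particular to the members. Synpo (synaptopodin, an actin-bundling partner of α-actinin) rose by 0.86 and 0.71, and Flnc (the muscle filamin) by 0.54 and 0.61, each in the severe line and then the mild line. Myl12a, a nonmuscle relative of Myl9, rose by 0.82 in the mild line, with 0.35 in the severe line (adjusted p = 0.0574), and was lower in the severe line than in the mild line (-0.47, adjusted p = 0.0449).

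Some markers of smooth muscle, fibroblasts and atria were called. For endothelium 0 of 11 markers and for leukocytes 0 of 10 were called in either line. The log2 of the endothelial markers' summed linear signals was 13.366 to 13.396 in the severe line and 13.453 to 13.5 in the mild line. Wild type hearts had endothelial sums of 13.394 to 13.585. The median log2 fold change of the endothelial markers was -0.14 in the severe line and -0.02 in the mild line. The leukocyte sums overlapped between all groups. Of 12 smooth muscle and pericyte markers outside the members, 3 rose and 1 fell in the severe line, 2 rose and 2 fell in the mild line, and none had a wild type mean below the array median. Their median log2 fold change was 0.05 in the severe line and 0.01 in the mild line. Abcc9, a potassium channel subunit, fell in both lines (-0.30 in the severe line and -0.44 in the mild line). Acta2, smooth muscle α-actin, was higher in the severe line (0.62, adjusted p = 0.00813), lower in the mild line (-0.55, adjusted p = 0.0159), and higher in the severe line than in the mild line by 1.17 (adjusted p = 0.000173), beside Myl9 and Tagln. Its wild type litters differed by 0.48 (severe line litters minus mild line litters, adjusted p = 0.0640). The smooth muscle heavy chain Myh11 had no call in either line, and Actg2 had 0.11 in the severe line and 0.03 in the mild line. The log2 of the summed linear signals of the 12 markers ran from 14.47 to 14.77 in severe line hearts and from 14.43 to 14.50 in mild line hearts, against 13.97 to 14.34 in wild type hearts. Des, a gene that cardiac muscle also expresses, rose by 0.69 in the severe line and by 0.89 in the mild line and is part of that sum.

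Of 12 fibroblast markers, 2 rose in the severe line (Mfap5 by 0.98 and Col1a1 by 0.48) and 1 in the mild line (Mfap5 by 0.57), with 0 lower and 1 of 12 below the array median. Their summed signals were 13.95 to 14.04 in the severe line and 13.76 to 14.07 in the mild line, against 13.61 to 13.76 in wild type. Of 5 atrial markers, 3 fell in the mild line, Sln and Myl7 by 1.84 each and Myl4 by 0.71, and 0 were called in the severe line. Their sums were 16.08 to 16.13 in the severe line and 15.75 to 15.90 in the mild line, against 16.10 to 16.23 in wild type, and this fall stands beside those of Csrp2 and Dstn. The part of vessels, fibroblasts or atrial tissue in the members' changes was not tested. Of 10 cardiac muscle markers 9 were measured and none was below the array median, and their sums overlapped in all groups, between 17.23 and 17.34. Ryr2 and Pln, calcium-handling genes, fell in the severe line (-0.49 for Ryr2 and -0.68 for Pln) and in the mild line (-1.11 for Ryr2 and -1.09 for Pln), where Actn2 rose by 0.27. Ryr2 was higher in the severe line than in the mild line by 0.62, and Tnni3 was lower in the severe line's wild type litters than in the mild line's (-0.61).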

How the data were processed

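Whole-heart RNA from 12 mice was hybridised to Illumina MouseWG-6 v2 arrays. The authors deposited raw bead summary intensity values, 1 per probe ID and array, exported from GenomeStudio, and a table of log2 values that they had background corrected and quantile normalized. Detection p-values are not used here, so background calls could not be made, and 6 lines without an ID were left out. Raw medians were 116 to 119 in severe line arrays and 103 to 106 in mild line arrays, against 103 to 113 in wild type arrays, and replicates correlated at 0.990 to 0.994. The number of arrays limits the precision.

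From the raw intensities, values were corrected with normexp (offset 50), quantile normalized and log2 transformed in limma 3.58.1 (R 4.3.3). IDs with identical values were merged. A linear model with 3 group means (severe, mild and 6 pooled wild type hearts) was fitted over 12 arrays with empirical Bayes variances, and p-values were adjusted by Benjamini-Hochberg over 30854 features. The litter comparison used 4 group means. P-values set each difference of group means against the spread between hearts within the groups. The methods' rule (adjusted p under 0.05 or p under 0.001, with a fold change of 2) was counted too. The fit was tested on simulated data. Gene symbols came from the array's annotation. Full values are given for members whose brightest feature had an adjusted p under 0.05 in either line or between them, and for up to 4 genes of each other list. The values of 1 such gene are not reported here. The members and lists were chosen with earlier results of these data known. Alternatives changed the background correction, scaling, filter, merging, variance model, control litters and arrays. Lists of endothelium (0 of 11 called in either line), leukocytes (0 of 10 in either line), platelets (0 of 5 in the severe line, 1 higher in the mild line), red blood cells (0 of 4 in the severe line, 1 higher in the mild line) and skeletal muscle (0 of 5 in the severe line, 1 higher in the mild line) were also read.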

Additional observations from a re-analysis of the deposited data

Results flagged for a closer look

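In 6 members the severe and mild lines differed from each other in limma: by 0.97 on the log2 scale for Myl9, 0.57 for Tagln, 0.66 for Csrp2, 0.36 for Actn1, 0.54 for Zyx and 0.48 for Dstn, severe line minus mild line. All 6 had the 3 severe line arrays above the 3 mild line arrays. None passed after each line was set against its own littermates.

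In the 6 wild type arrays, 2 of 35 genes had an array far from the rest by Dixon's ratio of gap to range (limit 0.625). Actn4 had a ratio of 0.628, from replicate 1 of the severe line's littermates at 8.96, with the others at 8.39 to 8.60. Csrp1 had 0.648, from replicate 3 of the mild line's littermates at 6.32, with the others at 6.00 to 6.11. Chance gives about 1 such gene in 20.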

How the results depend on the processing

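Over 24 alternatives each, 581 of 648 values of the 9 genes in the comparisons of the lines stayed on the same side of the threshold, 67 lost the call, 0 gained one and 0 called values changed sign, while 12 uncalled values of 5 results near 0 changed sign. Myl9, Tagln, Zyx and Actn1 in the severe line and Csrp2 in the mild line kept their calls under all 24, with Myl9 at 0.76 to 1.02 and Tagln at 0.53 to 1.07. The 2-fold rule left 0 member calls in each line and between the lines. Unmerged probe IDs gave 11 calls in the severe line and 9 in the mild line, on more IDs of the same genes. An offset of 16 gave 3 in the mild line and 3 between the lines, where median scaling and an adjusted p under 0.01 also gave 3. Median scaling moved the median of all features by at most -0.02, and turned the split of all features called to 270 higher and 857 lower in the severe line and 112 higher and 234 lower between the lines, against 539 and 480, and 238 and 184. Leaving out 1 array gave 6 to 8 calls in the severe line, 3 to 5 in the mild line (3 without mild line replicate 2) and 3 to 6 between the lines. Own littermates gave 0 between the lines. The cause of these shifts was not tested.

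Replicate numbers did not pair the hearts: same-number correlations of deviations were -0.244 to 0.056, and 1 of 6 transgenic arrays correlated best with its own number. With the number as a replicate block, 7 were called in the severe line, 1 in the mild line (Csrp2) and 0 between the lines, where 1.73%, 2.02% and 0.246% of all features were called. The litter comparison had 0 member calls under every alternative that gives it a value; own littermates and the block give none.

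Without detection p-values the distance of a feature from background is not known. This touches most the 10 member features at or below the array median, with 0 calls, and Tagln, just above it. The brightest features of Lmod1, Cald1, Pxn, Tln1 and Cnn2 were also close, at 0.13 to 0.39 above that median in wild type. Their small values are limited in the same way.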
